A study of Mus musculus with 22 samples.

Results

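Regions acetylated at lysine 27 of histone H3 (H3K27ac) in regulatory T cells (Treg cells) that carried no peak of Foxp3, Ikaros, p300 or NFAT1 were taken from peak lists made by chromatin immunoprecipitation and sequencing (ChIP-seq). The peaks of the 2 wild-type (WT) H3K27ac lists were joined where they shared at least 1 bp, a region was kept when both lists had a peak in it, and it was counted as having no mapped factor when none of the 8 WT lists of the 4 factors had a peak that overlapped it by 1 bp. Of 27503 acetylated regions, 7258 (26.4%) met this rule and 20245 had 1 or more of the factors. The members were therefore chosen on the WT lists, and what those lists show of them is given as a description. The 2 genotypes were IkE5-deletion, written IkE5 from here on, and WT. Primary mouse Treg cells, from lymph nodes and spleen in both genotypes, had received Cell Stimulation Cocktail for 1 h before they were fixed in 1% formaldehyde, for 5 min for H3K27ac and 30 min for the factors. The name IkE5 is not explained in the labels, the title of the series names Ikzf1, the gene of Ikaros, and strain, age and the number of animals per library are not given there. Foxp3, p300, NFAT1 and H3K27ac had 2 lists in each genotype, Ikaros had 2 in WT, and 4 input samples are not analysed here. All coordinates are of mm10.

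H3K27ac is laid down by the acetyltransferases p300 and CBP and marks active promoters and enhancers. In Treg cells Foxp3, the factor that defines the lineage, binds largely at enhancers that other factors have already opened, among them Ets and Runx proteins. Ikaros is a zinc finger factor of lymphocytes that recruits repressor complexes, and NFAT1 enters the nucleus on calcium signals. A peak list records where a signal passed a threshold, so a region with no mapped factor is a region where none of these 4 proteins gave a called peak. It may bind any of them below the threshold, and it may bind proteins that were not studied.

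Promoter windows that lay wholly inside such a region are shown first, each beside a gene of the same list and of the nearest base composition whose window lay wholly inside a region with all 4 factors. They show what the letters of both kinds of promoter look like. Sequences are from RefSeq, build GRCm38.p6, the assembly of mm10, from 250 bases before to 50 bases after the transcription start, 5′ to 3′ on the strand of the gene. Capitals mark matches on either strand to the Ets letters CCGGAA, the Sp1 letters GGGCGG, the AP-1 letters TGANTCA, the NFAT letters TGGAAA, the forkhead letters TGTTTAC, the Ikaros letters TGGGAA, the Runx letters TGTGGT and the repeat GAAANGAAA. This repeat was added after the sequences had been read, and GAAA repeats at other spacings, such as gaaaacgaaa in the Oas3 window, are not marked. Matches of different motifs may overlap. Cdk6 (window chr5:3343643-3343942, plus strand) encodes a kinase that starts the cell cycle and lay in a region of 5759 bp without a mapped factor. Cdk4 (chr10:127063285-127063584, plus strand) encodes its relative.
Cdk6, no mapped factor: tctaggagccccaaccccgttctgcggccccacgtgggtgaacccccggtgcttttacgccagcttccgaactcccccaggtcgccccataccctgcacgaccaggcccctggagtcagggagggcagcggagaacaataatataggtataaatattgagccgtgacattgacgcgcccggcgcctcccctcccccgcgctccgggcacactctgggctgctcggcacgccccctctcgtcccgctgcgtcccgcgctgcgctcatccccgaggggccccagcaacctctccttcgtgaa
Cdk4, all 4 factors: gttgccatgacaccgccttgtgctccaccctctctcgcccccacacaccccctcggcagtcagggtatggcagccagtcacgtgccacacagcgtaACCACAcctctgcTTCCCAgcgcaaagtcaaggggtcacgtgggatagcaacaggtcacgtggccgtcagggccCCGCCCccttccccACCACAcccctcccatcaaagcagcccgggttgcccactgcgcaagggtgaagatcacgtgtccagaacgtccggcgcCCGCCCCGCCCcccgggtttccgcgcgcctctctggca
Xaf1 (chr11:72301379-72301678, plus strand) encodes an interferon-induced protein that promotes cell death, and Oas3 (chr5:120777610-120777909, minus strand) an interferon-induced enzyme that senses double-stranded RNA.
Xaf1, no mapped factor: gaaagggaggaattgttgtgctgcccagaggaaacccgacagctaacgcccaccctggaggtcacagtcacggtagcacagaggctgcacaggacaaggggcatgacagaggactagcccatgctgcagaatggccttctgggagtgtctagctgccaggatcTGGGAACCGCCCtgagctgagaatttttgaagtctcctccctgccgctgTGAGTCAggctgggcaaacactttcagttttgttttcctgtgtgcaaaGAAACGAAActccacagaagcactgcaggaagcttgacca
Oas3, all 4 factors: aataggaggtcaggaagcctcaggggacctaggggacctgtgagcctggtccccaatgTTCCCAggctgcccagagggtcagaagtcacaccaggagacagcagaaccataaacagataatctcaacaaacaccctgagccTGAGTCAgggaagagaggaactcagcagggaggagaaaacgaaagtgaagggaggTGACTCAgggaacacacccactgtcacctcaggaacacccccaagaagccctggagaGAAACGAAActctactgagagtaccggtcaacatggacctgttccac
The Cdk6 window held 27 CpG dinucleotides and no match to any of the 8 motifs, and the Cdk4 window held 22 CpG and matches to the Runx, Ikaros and Sp1 letters. The Xaf1 and Oas3 windows, at 54.7% and 54.3% G and C, both held the GAAA repeat, an Ikaros match and an AP-1 match. The Xaf1 window also held an Sp1 match and the Oas3 window a second AP-1 match. A further interferon-induced pair, Ifit3 with no mapped factor and Ifih1 with all 4, is not printed. Neither of its windows held GAAANGAAA and they shared none of the 8 motifs, with AP-1 and Ikaros matches at Ifit3 and an Ets match at Ifih1. Both held GAAA repeats at a wider spacing, which were not counted, with tttcactttc (the other strand) at Ifit3 and gaaacagaaa at Ifih1. The regions of the 4 printed windows had an H3K27ac peak in both IkE5 libraries.

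MicroRNA genes were a further group of transcripts that could be read from the annotation. Of 1005 hairpins in the RefSeq table, 17 overlapped a region with no mapped factor and 109 a region with a factor. The 2 clusters shown were chosen after the overlaps had been seen, because they are the best known of the 17, and their mature sequences are given with the seed, bases 2 to 8, in capitals.
miR-15b-5p: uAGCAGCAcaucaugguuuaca
miR-16-5p: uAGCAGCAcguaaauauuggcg
miR-23a-3p: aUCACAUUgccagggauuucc
miR-27a-3p: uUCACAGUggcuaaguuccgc
miR-24-3p: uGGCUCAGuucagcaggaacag
The hairpins of miR-15b and miR-16-2, whose 5p forms share the seed AGCAGCA and restrain cell cycle genes, lay in the region chr3:68998829-69010839. It is 12011 bp wide and covers parts of Smc4, which encodes a condensin subunit, and of Ift80, and the nearest WT factor peak was 17.3 kb away. The hairpins of miR-23a, miR-27a and miR-24-2, which are transcribed together and have 3 different seeds, lay in a region of 2207 bp at chr8:84207496-84209702, 3.47 kb from the nearest WT factor peak. Both regions had an H3K27ac peak in both IkE5 libraries, and the first also had IkE5 peaks of Foxp3 and NFAT1 in 3 of the 6 IkE5 factor lists.

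The H3K27ac lists held 47982 and 37152 peaks in IkE5 and 53032 and 35272 in WT, covering 72.9 and 62.1 Mb in IkE5 and 79.6 and 54.6 Mb in WT. The lists do not carry read numbers, so depth is unknown, and the number of peaks moves with depth, enrichment and threshold as well as with the mark. All 5 Treg marker genes (Foxp3, Il2ra, Ctla4, Ikzf2 and Tnfrsf18) and all 5 general T cell markers had a WT acetylated region in or within 10 kb of the gene. Among the markers used for this check, none of the promoter windows of 3 B cell and 4 myeloid genes lay in such a region, while in longer lists 1 of 11 B cell and 1 of 11 myeloid genes had a promoter window in a region with a factor, and those of Nkg7 and Prf1 did among 6 genes of CD8 T and natural killer cells. The largest share of identical peak intervals among 153 pairs of lists was 0.745%, so no list was a copy of another. The labels do not say whether replicate libraries are from different mice.

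Regions with no mapped factor were narrow. Their median width was 1068 bp, with quartiles of 799 and 1533 bp, against 2081 bp, 1441 and 3089 bp for regions with a factor, and they held 9.51 Mb against 56.3 Mb. Width is tied to the rule, since a wider region has more room for a peak. Of the regions under 1000 bp, 62.7% had no mapped factor, and of those of 5000 bp or wider 2.67%, which were 56 regions. The share with no mapped factor was 26.4% over all chromosomes and lay between 23.7% and 28.8% on the autosomes, while on the X chromosome it was 15.1% (87 of 576 regions). The lower value of X was found in each H3K27ac library on its own. There, 41.3% and 32.6% of X peaks in IkE5 and 40.2% and 24.3% in WT had no WT factor peak, against 52.8% and 41.0% of autosomal peaks in IkE5 and 53.6% and 38.8% in WT.

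**Figure D1:**
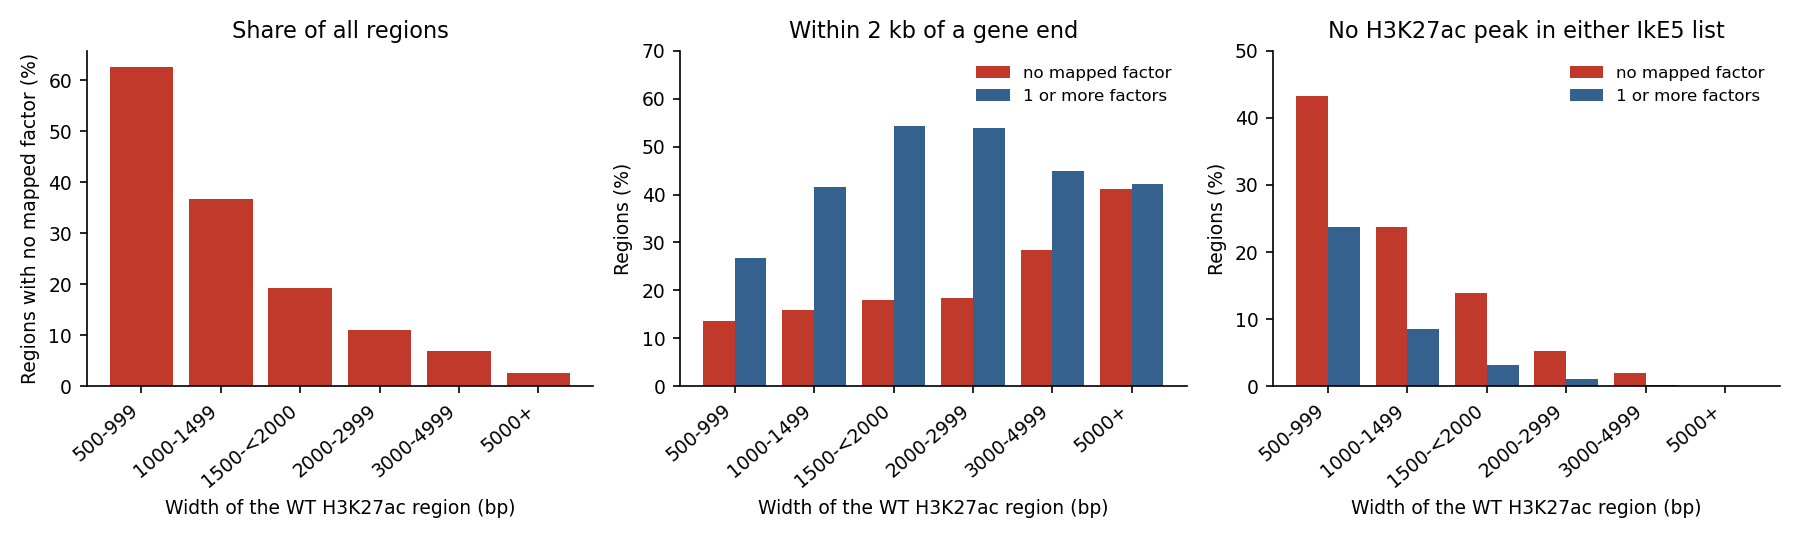
Share of WT H3K27ac regions with no mapped factor, share within 2 kb of a gene end and share without an H3K27ac peak in either IkE5 list (vertical axes, %), by width of the region in bp (horizontal axis), for regions with no mapped factor (red) and with 1 or more (blue). The share with no mapped factor falls from 62.7% under 1000 bp to 2.67% at 5000 bp and above, and the red bars stand below the blue ones for gene ends in every bin of width and above them for missing IkE5 peaks in every bin under 5000 bp.

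Most of these regions lay close to a factor peak without touching it. The gap to the nearest WT factor peak had a median of 3669 bp and quartiles of 1744 and 9755 bp. It was at most 1 kb at 901 regions (12.4%), over 10 kb at 1782 (24.6%) and over 100 kb at 124. When acetylated regions less than 12.5 kb apart were joined into clusters, 5316 regions with no mapped factor (73.2%) shared a cluster with a region that had a factor, 1623 (22.4%) stood alone, and 319 stood with others of their kind only. Regions with a factor stood alone at 39.4%. The cluster with the most members, 21 of 36 regions, ran along Bach2 from chr4:32215720 to 32436247, and clusters with 20 each lay at Foxp1, at Zmiz1 and on chromosome 7 from 63894967 to 64065257, a stretch that begins within Klf13, a gene of a zinc finger factor. Near the threshold both sides looked alike. The 97 regions within 100 bp of a factor peak had a median width of 1052 bp and lay within 2 kb of a gene end at 28.9%, and the 102 regions kept out by a single list whose peak reached in by at most 100 bp had a median width of 946 bp and lay there at 27.5%.

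Promoters were rare among them. Without chromosome 18, a promoter window overlapped 550 of 7069 regions with no mapped factor (7.78%) and 8095 of 19712 with a factor (41.1%). Gene ends, which here are either end of a gene and so not promoters alone, gave the same order. The nearest end of a protein-coding gene was within 2 kb at 1159 regions with no mapped factor (16.0%) and at 9417 with a factor (46.5%). Wider regions reach more gene ends, but the order held at equal width, with 18.4% against 53.9% at 2000 to under 3000 bp, and the shares were 41.1% and 42.3% at 5000 bp and above. Measured from the region's centre to the nearest annotated transcription start, without chromosome 18, for which no starts were used, 11.6% of the regions with no mapped factor and 40.9% of those with a factor lay within 2 kb. In both classes more regions lay downstream than upstream at each distance beyond 2 kb. From 10 to 50 kb downstream lay 27.2% of the regions with no mapped factor and 16.8% of those with a factor, and from 10 to 50 kb upstream 15.7% and 13.1%. Inside a protein-coding gene lay 71.9% and 75.2%. These shares describe regions of the same libraries, which are not replicates, so no test was made over them.

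**Figure D2:**
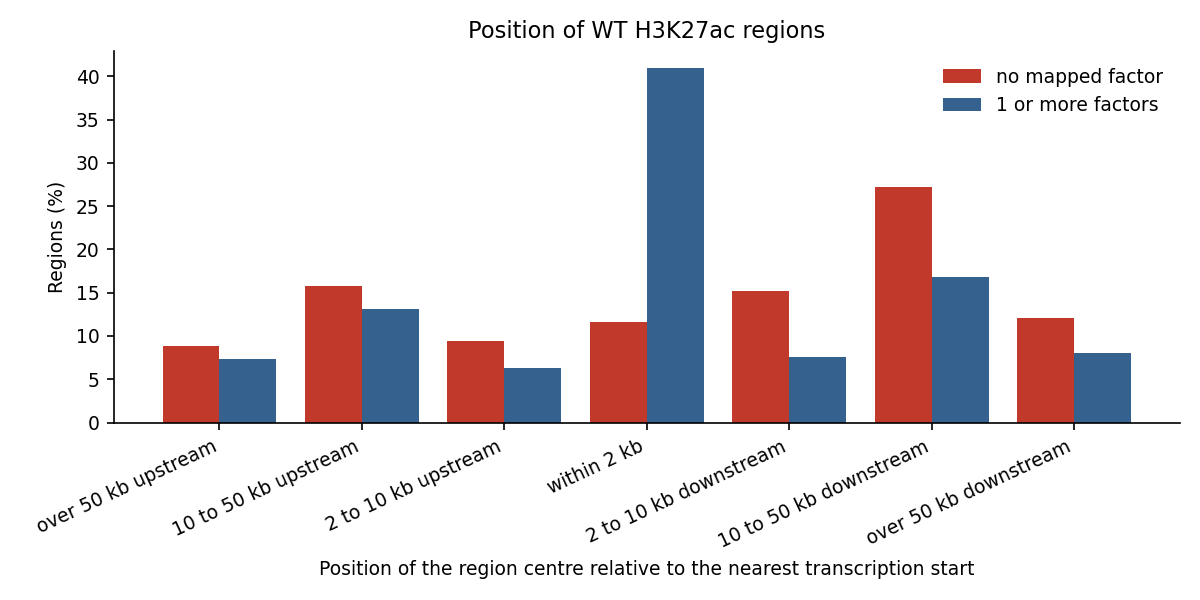
Share of WT H3K27ac regions (vertical axis, %) by position of the region's centre relative to the nearest annotated transcription start (horizontal axis), for 7069 regions with no mapped factor (red) and 19712 with 1 or more (blue). Within 2 kb of a start the red bar is at 11.6% and the blue bar at 40.9%, and the red bars are the higher ones at every other distance.

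The promoters that did lie in these regions had fewer CpG dinucleotides. Of 32851 RefSeq promoter windows, 635 overlapped a region with no mapped factor and no other acetylated region, and 11309 overlapped a region with a factor. The median number of CpG per 300-base window was 13 in the first group, 22 in the second and 4 in the 20907 windows outside acetylated regions. Long noncoding RNA genes made up 26.3% of the first group and 14.5% of the second, and for 65 windows of the first group (10.2%) another start of the same gene lay in a region with a factor. The Ets letters were found in 16.2% of the windows in regions with no mapped factor, in 31.2% of those in regions with a factor and in 14.9% of all windows. The Sp1 letters were found in 52.1%, 64.8% and 35.7%. The Ikaros letters were found in 22.0%, 22.3% and 25.6%, the NFAT letters in 17.3%, 16.2% and 21.4%, the forkhead letters in 3.15%, 2.57% and 3.65%, the Runx letters in 15.0%, 12.7% and 16.8%, the AP-1 letters in 6.77%, 4.45% and 7.81% and the GAAA repeat in 2.20%, 2.33% and 3.17%. The Ets and Sp1 letters each contain a CpG, and the windows were not matched for CpG or base composition. Median G and C was 58.7% in the first group and 61.3% in the second. A match is a description of letters, the GAAA repeat was counted as GAAANGAAA only, and windows of neighbouring starts of a gene overlap.

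The 10 widest regions with no mapped factor lay at genes of varied function. The widest, of 12612 bp, ran from chr16:10777431 to 10790042 over Socs1, a brake on cytokine signalling, and Tnp2, a gene of sperm chromatin. H3K27ac covered 12605 and 11572 bp of it in IkE5 and 12612 and 10597 bp in WT. Others covered parts of Tet3 (11427 bp), which encodes an enzyme that oxidises methylcytosine, of Trib2 (10935 bp), a pseudokinase gene, of Myh9 (10522 bp), a myosin gene, of Hdac7 (8491 bp), which encodes a histone deacetylase, of Dusp10 (8201 bp), a phosphatase gene of the MAP kinase pathway and of Arhgap9 (7807 bp). Anp32a with Gm20346 (12064 bp) and Cwc27 (9403 bp), the gene of a splicing factor, make up the 10 widest together with the Smc4 region. In each of these 10 both IkE5 libraries had H3K27ac, over at least 3307 bp. The nearest WT factor peak was 1.29 kb away at Anp32a and 30.5 kb away at Cwc27, with the other 8 between these.

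Genes differed in how many of these regions they held. In or within 10 kb of 4345 of 21887 protein-coding genes (19.9%) lay at least 1, and 12750 genes had a region with a factor. Members only were found at 491 genes. Genes with a member were longer, with a median of 34.3 kb against 18.4 kb for genes with factor regions only, and 208 genes had 5 or more. Foxp1, which encodes a forkhead factor of resting T cells, had 34 and 33 regions with a factor. Bach2, a repressor of effector genes, had 27 against 18, and Zmiz1, which encodes a coactivator related to the PIAS proteins, had 27 against 6. Rad51b, a DNA repair gene, and Ripor2 had 17 each, against 19 and 9 with a factor. Fyn, a kinase of the T cell receptor pathway, and Ankrd11, a chromatin regulator, had 16 each, Inpp4b, a lipid phosphatase gene, had 14, and St6gal1, a sialyltransferase gene, and Akap13, an anchor of protein kinase A, had 13 each.

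Gene lists differed too, and the lists are no independent evidence, since earlier results of these data were known when they were written. Over all regions 26.4% had no mapped factor. Naive and quiescence genes stood highest, with 123 regions without and 115 with a factor (51.7% without) at 16 and 20 of 20 genes, followed by T cell identity genes with 76 and 91 (45.5%). In the first list 34 members lay at Foxp1, 27 at Bach2 and 12 each at Lef1 and Satb1, and Lef1 and Satb1 were in the second list too. The Treg signature had 45 and 95 (32.1%), of which Ikzf2, the gene of the Ikaros relative Helios, and Rora, a nuclear receptor gene, had 9 members each, Nrp1, the gene of a surface receptor of thymic Treg cells, had 5, and Lrrc32, which encodes the carrier of latent transforming growth factor beta, had 4. Interferon-induced genes had 18 and 35 (34.0%), with 3 members at Ifit2. Activation-induced genes had 13 and 69 (15.9%), with 2 at Rel, an NF-kappaB subunit gene, and single regions at Fosb, Junb and Nr4a1. Lists of genes used by all cells were also below the value over all regions. Cytosolic ribosomal protein genes had 5 and 59 (7.81%), the respiratory chain 6 and 52 (10.3%), the spliceosome 6 and 48 (11.1%), the proteasome 10 and 47 (17.5%), and DNA replication and cell cycle genes 14 and 61 (18.7%). These last genes are short, with a median length of 3.35 kb for ribosomal protein genes against 30.3 kb for naive and quiescence genes, and length was not matched.

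At the promoter itself a region with a factor was the common case. Over all genes 11309 promoter windows overlapped a region with a factor and 635 only a region without. Lists of this size would therefore have few exceptions, and the housekeeping lists had none. All 25 ribosomal protein, 27 respiratory chain, 24 proteasome and 25 spliceosome genes with a promoter window had it in a region with a factor, and so had 17 of 17 T cell identity, 23 of 23 activation-induced and 20 of 21 Treg signature genes. The promoters of Ifit3 and Xaf1, of 22 interferon-induced genes, and of Cdk6, of 25 replication and cell cycle genes, were those that lay in a region with no mapped factor alone. Effector cytokine genes had 5 members and 13 regions with a factor (27.8% without, beside 26.4% over all regions) at 4 and 10 of 20 genes. Tnfsf8, which encodes a ligand of the tumour necrosis factor family, had 2 members, and Il4, Csf2 and Tnfsf11 had 1 each. The member at Csf2, of 559 bp, was the gene's only region with H3K27ac in both WT libraries.

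Genes of other cell types also had such regions. B cell markers had 6 members and 14 regions with a factor, myeloid markers 3 and 12, and markers of CD8 T and natural killer cells 3 and 7. Over all regions 26.4% had no mapped factor. The share was above this value for B cell and for CD8 T and natural killer markers, and below it for myeloid markers. Counts this small do not set these lists apart from all regions. All 3 members of the CD8 T and natural killer list were at Gzmk, a granzyme gene, which had no region with a factor. Cd79b, a B cell receptor gene, and Itgax, an integrin gene of dendritic cells, had 1 member each and no region with a factor. Both members counted at Cd79a are shared with its neighbour Rps19. Vpreb3 had 2 members and Ebf1, Itgam and Spi1 had 1 each.

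H3K27ac in IkE5 cells was found at part of the regions with no mapped factor. An H3K27ac peak was present at 62.0% of them in the first IkE5 library and at 58.4% in the second, against 91.4% and 92.3% of the regions with a factor. Neither IkE5 library had one at 2080 (28.7%), against 959 (4.74%) of the regions with a factor and a background of 11.0% over all 27503 regions. By the number of WT factor lists in a region the share was 28.7% with none, 14.6% with 1 list, 9.27% with 2, 4.61% with 3, 1.62% with 5, 1.80% with 6 and 0.733% with all 8. It was lower in wider regions, and the order between the classes held at equal width, with 43.3% against 23.7% under 1000 bp and 13.8% against 3.23% at 1500 to under 2000 bp. None of the 56 members of 5000 bp or wider was missing, and 5 of the 302 of 3000 bp or wider were. Both classes were measured in the same 2 IkE5 libraries, where an exact sign-flip permutation test cannot go below 0.5, so the difference between the classes was not tested.

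**Figure D3:**
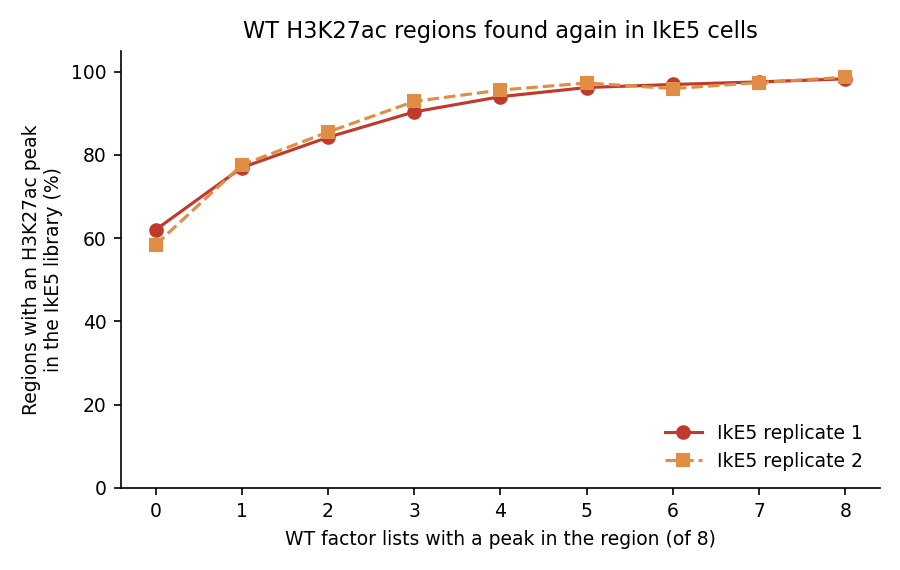
Share of WT H3K27ac regions with an H3K27ac peak in each IkE5 library (vertical axis, %) by the number of WT factor lists with a peak in the region (horizontal axis, 0 to 8, where 0 marks the regions with no mapped factor). The libraries stand at 62.0% and 58.4% at 0 lists and at 98.3% and 98.6% at 8 lists.

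Libraries of the same genotype also differed in how many such peaks recurred. Of the 13594 peaks of the second WT list without a WT factor peak, 55.8% and 51.9% recurred in the IkE5 lists and 77.4% in the longer WT list, whereas of the 28292 such peaks of the first WT list 44.5% and 32.8% recurred in the IkE5 lists and 30.5% in the shorter WT list. The part of depth and threshold in the missing regions was not tested. The same rule was also applied the other way round, without Ikaros, which was mapped in WT only. Of 9772 regions acetylated in both IkE5 libraries without an IkE5 peak of Foxp3, p300 or NFAT1, 18.1% had no WT H3K27ac peak (background 9.09%), and of 10276 WT regions without a WT peak of these 3, 23.6% had no IkE5 peak. Each library's own share of H3K27ac peaks without a WT factor peak was 52.6% and 40.8% in IkE5 and 53.3% and 38.5% in WT, which gave 46.7% ± 8.33 in IkE5 and 45.9% ± 10.5 in WT (SD, n = 2 each). The genotypes overlapped and the difference of 0.734 percentage points was smaller than the spread between libraries (exact permutation test, 2-sided, p = 1.0, smallest possible p 0.333).

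The number of regions missing in IkE5 cells differed between genes. Lef1, a factor of naive T cells, had 12 members, 11 of them without a peak in the IkE5 lists, and H3K27ac covered 0 and 0.134 kb of them in IkE5 and 11.1 and 11.3 kb in WT. At Satb1, a chromatin organiser, 8 of 12 were missing, with 0.996 and 2.50 kb covered in IkE5 and 9.84 and 10.7 kb in WT. The rule asked for a peak in both WT lists and left the IkE5 lists free, so lower IkE5 values are given by the choice of regions. Over all 7258 members H3K27ac covered 50.7% and 47.1% of their length in IkE5 and 90.6% and 71.9% in WT. The lengths at single genes are a description beside these values.

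At Foxp1 16 of 34 members were missing from both IkE5 libraries, and the covered length over the 34 was 6.28 and 7.63 kb in IkE5 and 37.4 and 32.8 kb in WT. At Bach2 14 of 27 were missing, with 5.29 and 7.67 kb in IkE5 and 35.7 and 27.4 kb in WT, and at Ripor2 9 of 17, with 2.79 and 3.995 kb in IkE5 and 19.9 and 15.1 kb in WT. Most regions of these genes that had a factor were present in an IkE5 library. Over the 33 such regions of Foxp1 H3K27ac covered 91.7 and 101 kb in IkE5 and 162 and 146 kb in WT, with 6 missing, and over the 18 of Bach2 66.2 and 97.0 kb in IkE5 and 126 and 118 kb in WT, with 1 missing. Of all regions with a factor 4.74% were missing. Regions with a factor were wider than members, with medians of 3130 against 1146 bp at Foxp1, 5306 against 1353 bp at Bach2 and 3063 against 1266 bp at Ripor2. They were not compared at equal width within genes.

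At Zmiz1, with as many members as Bach2, 2 of 27 were missing, and the covered length was 36.7 and 32.2 kb in IkE5 and 39.5 and 29.5 kb in WT, with the genotypes overlapping. No member was missing of 9 at Bcl11b, a factor of T cell commitment, and of 9 at Ikzf2. Ikzf2 had 21.8 and 15.5 kb in IkE5 and 22.0 and 10.6 kb in WT, so the genotypes overlapped, whereas Bcl11b had 17.2 and 12.7 kb in IkE5, below the 19.6 and 18.7 kb in WT. Of the other genes with most members, 5 of 17 were missing at Rad51b, 3 of 14 at Inpp4b, 3 of 13 at Akap13, 2 of 16 at Fyn, 2 of 16 at Ankrd11 and 2 of 13 at St6gal1. The covered length was also lower in both IkE5 libraries than in either WT library at Rad51b (7.44 and 11.5 kb in IkE5, 23.0 and 17.0 kb in WT), at Ankrd11 (5.85 and 9.09 kb in IkE5, 15.3 and 11.6 kb in WT), at Akap13 (8.77 and 7.63 kb in IkE5, 14.3 and 11.1 kb in WT) and at St6gal1 (10.7 and 11.98 kb in IkE5, 19.0 and 14.7 kb in WT). Beside the 28.7% missing over all members, 65 of the 123 members at naive and quiescence genes were missing and 27 of 76 at T cell identity genes. Lef1 (11 of 12 missing) and Satb1 (8 of 12) were in both lists, and Foxp1 (16 of 34) and Bach2 (14 of 27) in the first. These few genes gave much of both totals. Missing were 9 of 45 members at Treg signature genes, 0 of 18 at interferon-induced genes and 0 of 5 at effector cytokine genes. The number was 4 of 13 at activation-induced genes, 5 of 14 at replication and cell cycle genes, 3 of 6 at spliceosome genes, 2 of 5 at ribosomal protein genes, 2 of 10 at proteasome genes and 1 of 6 at respiratory chain genes. That H3K27ac is missing at resting T cell genes was known when these lists were written, and the genes plotted were picked after their values had been seen.

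**Figure D4:**
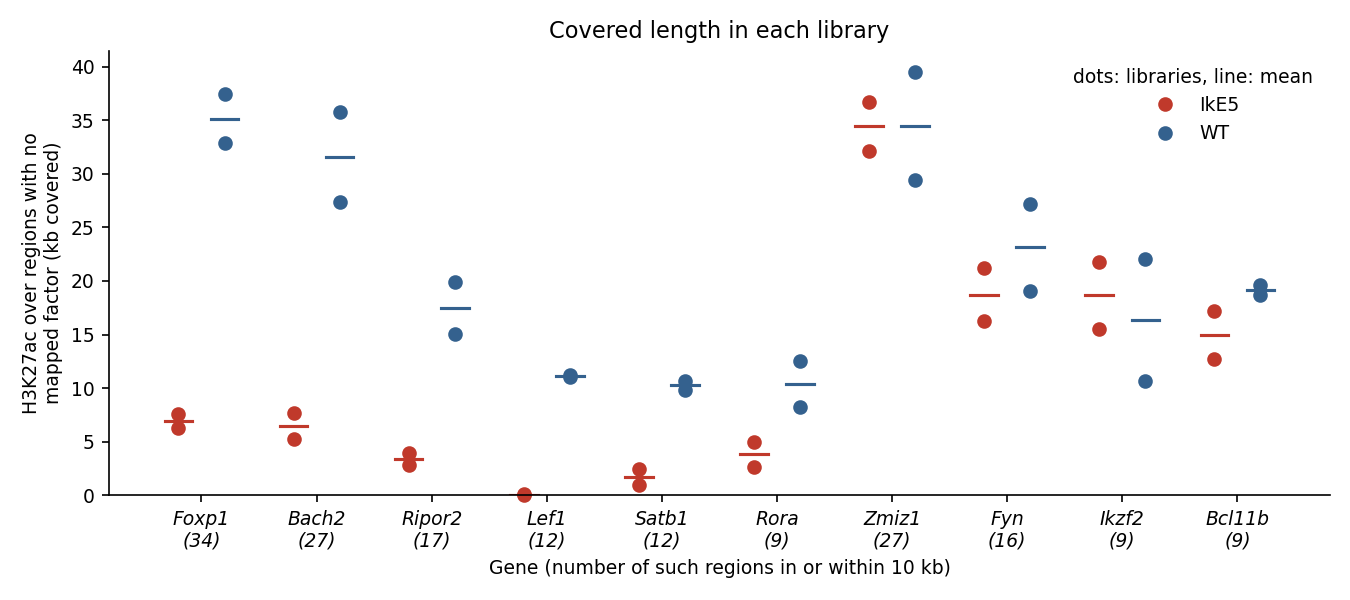
Length of H3K27ac (vertical axis, kb covered) over the regions with no mapped factor of 10 genes (horizontal axis, number of regions in brackets) in each IkE5 library (red) and each WT library (blue), with dots for libraries and a line for the mean. The red dots of Foxp1, Bach2, Ripor2, Lef1, Satb1, Rora and Bcl11b lie below the blue ones, and those of Zmiz1, Fyn and Ikzf2 overlap them, where the regions were chosen for a peak in both WT libraries and over all members 4.82 and 4.48 Mb were covered in IkE5 and 8.61 and 6.84 Mb in WT.

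**Figure D5:**
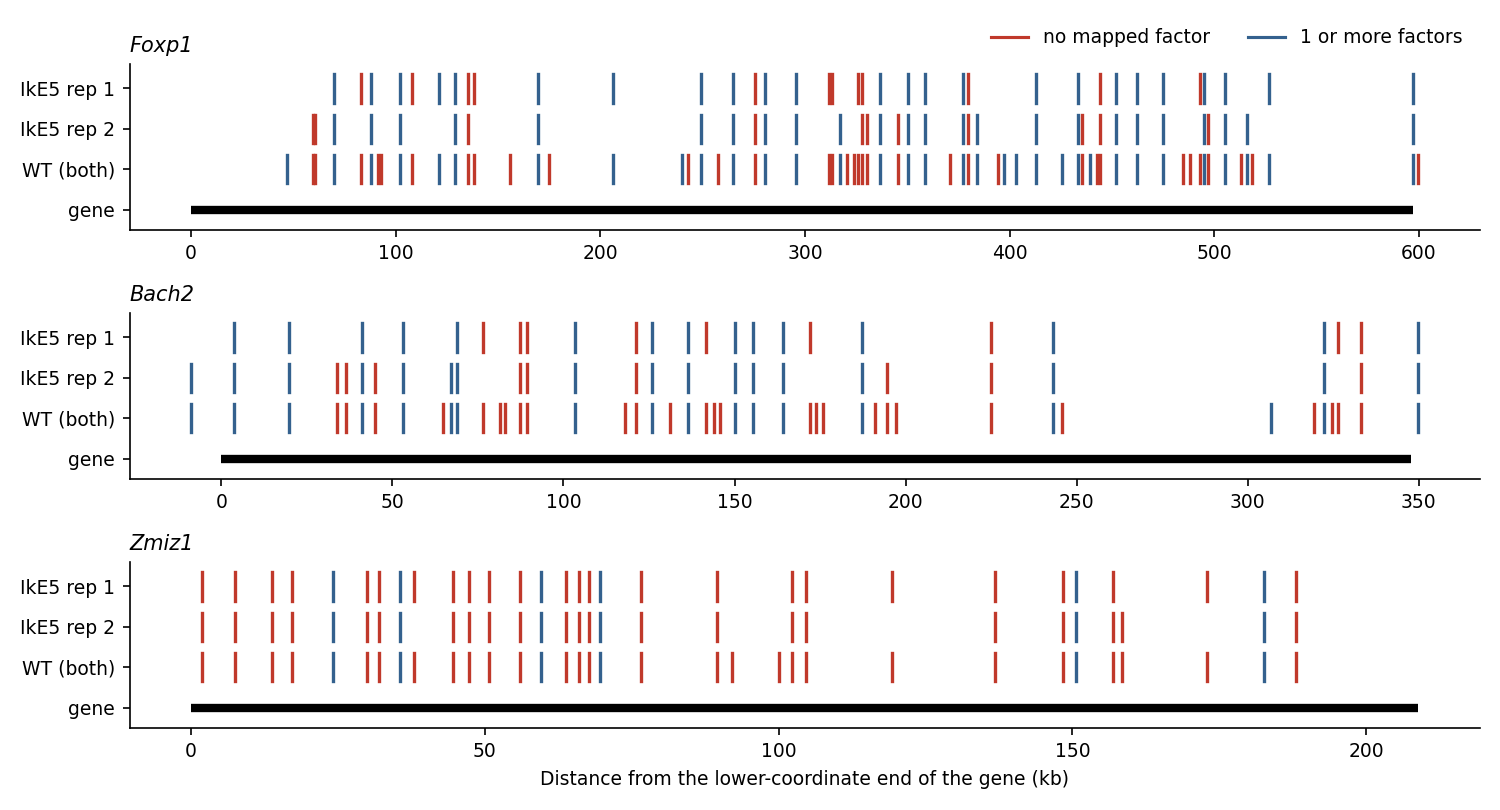
Maps of Foxp1, Bach2 and Zmiz1 with distance from the lower-coordinate end of the gene in kb (horizontal axis). Ticks mark WT H3K27ac regions with no mapped factor (red) and with 1 or more (blue), in the row for WT where both libraries had a peak and in the rows for IkE5 where that library had one. Red ticks are missing from the IkE5 rows at Foxp1 and Bach2 (16 of 34 and 14 of 27 in both rows) and are mostly present at Zmiz1 (2 of 27 missing in both rows).

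Of the 10 widest missing regions, 1 lay at Foxp1 and the others elsewhere. The widest, of 3912 bp at chr2:71792107-71796018, lay in Itga6, an integrin gene, 4.47 kb from a WT factor peak. The 10 included a pair of neighbours in Rrp1, a gene of ribosomal RNA processing, of 3195 bp (chr10:78398670-78401864) and 2504 bp (chr10:78401953-78404456). Others lay in Fam168b (3165 bp), in Kif3b (3120 bp), a kinesin gene, in Foxp1 (3050 bp, chr6:99166735-99169784), in Ubash3b (2716 bp), which encodes a phosphatase that restrains T cell receptor signals, and in Prg4 (2605 bp), which encodes lubricin. The remaining 2 of the 10 had no gene within 10 kb, the nearest being Rbm38 at 21.6 kb and Rplp1 at 166 kb. None of the 10 had an IkE5 peak of Foxp3, p300 or NFAT1. WT acetylated regions were also found at 4 of 6 B cell markers, 3 of 6 myeloid markers and 6 of 8 markers of CD8 T and natural killer cells. H3K27ac covered 3.999 and 3.49 kb at the 6 B cell markers in IkE5 and 6.22 and 5.56 kb in WT, and 2.41 and 1.80 kb at the 8 markers of CD8 T and natural killer cells in IkE5 and 2.93 and 3.14 kb in WT. At the 6 myeloid markers it was 5.20 and 4.70 kb in IkE5 and 8.70 and 5.08 kb in WT, where the genotypes overlapped. Of the members near the longer lists, 3 of 6 were missing for B cells, 1 of 3 for myeloid cells and 0 of 3 for CD8 T and natural killer cells. The part of other cells in the missing regions was not tested.

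Few of the regions had a factor peak in IkE5 cells. An IkE5 peak of Foxp3, p300 or NFAT1 overlapped 725 of the 7258 (9.99%), against a background of 61.3% over all regions, most of which had a WT peak too. Foxp3 was found at 430 and 296 regions in the IkE5 libraries, p300 at 118 and 106 and NFAT1 at 47 and 22. Both IkE5 libraries agreed on 84 regions for Foxp3, 37 for p300 and 13 for NFAT1. Of 642 members with Foxp3 in either IkE5 library, 13.1% had it in both, against 63.4% of the regions with a mapped WT factor. A single list held the peak at 532 of the 725, and 5 or 6 of the 6 lists did at 6 and 1 regions. IkE5 peaks were found at 15.6% of the members acetylated in both IkE5 libraries and at 3.17% of those missing from both.

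The WT lists had to be empty in these regions, so a further count left each target free in turn. The regions were still chosen by WT H3K27ac and by the other 3 WT factors, and by no IkE5 list. The tests given here therefore cannot decide a difference between the genotypes. In regions without the other 3 WT factors, p300 was present at 1.72% and 1.52% in IkE5 and at 0.601% and 0.287% in WT (7320 regions, exact permutation test, 2-sided, p = 0.333, the smallest possible), Foxp3 at 8.28% and 5.38% in IkE5 and 5.49% and 3.94% in WT (7935 regions, exact permutation p = 0.667) and NFAT1 at 0.708% and 0.354% in IkE5 and 0.763% and 0.531% in WT (7340 regions, exact permutation p = 0.667). The NFAT1 lists were shorter in IkE5, with 4908 and 3435 peaks, than in WT, with 7825 and 6850. Per 1000 peaks of the list the NFAT1 order turned, to 10.6 and 7.57 regions in IkE5 and 7.16 and 5.69 in WT. The order for p300 turned with the genotype whose lists chose the regions. In WT acetylated regions without WT Foxp3 and NFAT1 it was 4.25% and 2.89% in IkE5 and 2.00% and 1.41% in WT, and in IkE5 acetylated regions without IkE5 Foxp3 and NFAT1 it was 3.33% and 1.92% in IkE5 and 4.98% and 2.73% in WT. For NFAT1, without Foxp3 and p300 of the same genotype, it was 1.08% and 0.515% in IkE5 and 1.42% and 0.916% in WT in WT regions, and 0.770% and 0.335% in IkE5 and 2.86% and 2.23% in WT in IkE5 regions. For Foxp3, without p300 and NFAT1 of the same genotype, it was 25.1% and 29.1% in IkE5 and 25.2% and 27.4% in WT in WT regions. In IkE5 regions Foxp3 was at 29.2% and 30.9% in IkE5 and 29.8% and 30.1% in WT, and the genotypes overlapped in both. By the mirrored rule 18.8% of the IkE5 regions had a WT peak of the 3 targets (background 61.4%), and 19.1% of the WT regions had an IkE5 peak.

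The regions with peaks in most IkE5 factor lists lay largely outside protein-coding genes. The only member with a peak in all 6 lists, of 572 bp at chr13:44359738-44360309, was 370 kb from the nearest protein-coding gene, Jarid2, a Polycomb cofactor. Peaks in 5 lists were found at 6 members. They lay 18.3 kb from Tcf7, a factor of naive T cells (chr11:52301715-52307640), 27.1 kb from Cradd, 37.1 kb from Nrp1, 9.88 kb from Nol10 and 0.597 kb from Padi3, and in Cab39. The region nearest Cradd overlapped a RefSeq promoter window. The Tcf7 region, 5926 bp wide, had H3K27ac over 0 and 4323 bp in IkE5 and 3933 and 5703 bp in WT, so H3K27ac was present there in the second IkE5 library alone. Of the 22 members with peaks in 4 lists, the 3 widest were a region of 4156 bp in Mpzl3, 1 of 2638 bp in Il18rap (chr1:40528521-40531158), which encodes a receptor chain for interleukin 18, and 1 of 2463 bp, 8.35 kb from Il21r, the gene of the interleukin 21 receptor. The Il18rap region had Foxp3 and p300 in both IkE5 libraries and no NFAT1, with H3K27ac over 2638 and 2452 bp in IkE5 and 2638 and 1000 bp in WT.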

How the data were processed

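Peak lists of 18 of 22 samples were used. The submitters' processing notes list MACS2, HOMER, Bowtie2, FastQC and bedtools, with mm10 as the build. Which of these called which list, and the settings, are not given in the sources used here. The deposited files hold chromosome, start and end of each peak per library, with no score or header, so depth is unknown. Factor peaks were 463 to 500 bp wide and H3K27ac peaks 500 bp or wider.

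Peaks were joined and counted with Python 3.11.15 and pandas 2.3.3, in code tested on simulated peaks. Regions in or within 10 kb of a gene were assigned to it, using 21887 RefSeq genes that code for protein (GRCm38.p6). That gene table has no strand, so a gene end is either end. Transcription starts came from 32851 promoter windows with strand, none on chromosome 18.

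The members and the 14 gene lists were chosen with earlier results of these data known. Of the listed symbols, Folr4, Trac, Mx1 and Mx2 were not found among these genes. Genes were named by fixed rules, namely the 10 widest members, the 10 genes with most, the 10 widest without IkE5 H3K27ac, the 10 with most IkE5 factor lists and up to 4 genes with most members per list. Of the genes so chosen, 1 is not reported here. Libraries were compared by an exact 2-sided permutation test, whose p measures no more than how libraries vary, possibly for technical reasons. Replicate numbers are shared between genotypes, and nothing in the labels says that they mark a pair.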

Additional observations from a re-analysis of the deposited data

How the results depend on the processing

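Every value depended on the peaks called. When only factor regions found in both libraries excluded a region, there were 12255 regions with no mapped factor, with a median width of 1231 bp, 22.5% within 2 kb of a gene end, 21.9% without IkE5 H3K27ac and 25.9% with an IkE5 factor peak. Without the Ikaros lists the median width was 1157 bp and these shares were 22.7%, 23.6% and 19.1%. Merging all 4 H3K27ac lists gave a median width of 1230 bp and 34.4% without IkE5 H3K27ac. Asking for 250 bp of overlap gave 12.6% with an IkE5 factor peak, widening factor peaks by 1000 bp gave 15.0% near a gene end, and asking for 50% of the shorter covered length to be shared gave 27.6% without IkE5 H3K27ac. Near a gene end lay 11.2% at 1 kb and 27.7% at 5 kb. With IkE5 coverage of at least 50% of the region required, 41.0% lacked it. IkE5 factor peaks of both libraries were at 1.69%, and with 250 bp of overlap at 8.80%. The mirrored rule, added after the data had been seen, gave 18.1% and 18.8%.

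Leaving out each library in turn gave 7276 to 28292 regions, median widths of 631 to 1112 bp, 12.8% to 19.5% near a gene end, 25.8% to 49.3% without IkE5 H3K27ac and 5.30% to 14.8% with an IkE5 factor peak. Without WT H3K27ac replicate 1 there were 13594 regions, and without replicate 2 there were 28292, 49.3% without IkE5 H3K27ac and 6.39% with an IkE5 factor peak, since 1 list alone then chose them. Without replicate 1 of the IkE5 factor lists 5.30% had an IkE5 factor peak, and without replicate 2 6.85%. For the share of a library's own peaks with no factor, IkE5 minus WT was -6.67 to 8.14 percentage points with a library left out. It was -5.16 without IkE5 replicate 1 and -6.67 without WT replicate 2, and -2.79 with the factor lists of each genotype (exact permutation p = 0.667). With the replicate block it was 0.734 (-0.781 within number 1 and 2.25 within number 2, exact sign-flip permutation p = 1.0). The sign thus differed between settings. No setting could give a small p, since the smallest possible was 0.333 in the permutation test and 0.5 in the sign-flip test. The cause was not tested for any of these values.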
